A study of Mus musculus with 2 samples.

Results

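The miR-28 family of the newborn mouse intestine was described from the counts of its 3 genes, Mir28a, Mir151 and Mir708. The genes were found by matching the identifiers of the deposited counts to GENCODE M21, and they are 3 of 1973 miRNA genes counted. Small RNA of the intestine was sequenced from 2 pups of strain B6NCrl at postnatal day 0, with 1 library for each pup, called pup 1 and pup 2. Both pups came from a single pregnant female, carried no stated allele or treatment, and had no sex recorded. The labels name the intestine without a segment. With a single group there was no condition to compare, and the members were chosen by miRNA family with their annotated-strand counts in both libraries already known, so all values below are descriptions without a test. The pups are separate animals, but littermates, so the spread between them may be smaller than that between litters.

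A miRNA gene is transcribed as part of a longer RNA, cut to a hairpin by Drosha and to a duplex by Dicer, and one strand of the duplex, the 5p or the 3p arm, guides Argonaute to messenger RNAs. Target choice rests mainly on the seed, bases 2 to 8 of the mature miRNA. The hairpins of the miR-28 family resemble LINE-2 transposable elements and lie within introns of host genes, whose transcripts they share. Human miR-28 is known for restraining B cell growth and is low in B cell lymphomas. In human liver cancer cells miR-151 is known for promoting cell migration, and its hairpin is a known substrate of adenosine-to-inosine editing in mouse and human. In mouse cells miR-708 is induced together with its host gene by the stress factor CHOP.

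The RefSeq table of mature sequences on GRCm38.p6 held both arms of Mir28a and of Mir708 and the arm of their relative Mir28b, while for Mir151 no sequence is shown. The arms are printed because they show what joins Mir28a and Mir708 and what separates their reads. Capitals mark the seed, and all are written from 5′ to 3′.
miR-28a-5p: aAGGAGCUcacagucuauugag
miR-708-5p: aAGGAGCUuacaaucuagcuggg
miR-28b: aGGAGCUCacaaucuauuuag
miR-28a-3p: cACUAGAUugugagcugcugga
miR-708-3p: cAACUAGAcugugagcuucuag

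The 5p arms of Mir28a and Mir708 had the same seed, AGGAGCU. Read base by base from position 1 at the 5′ end without gaps, 16 of 22 positions were identical. The 6 differences, with miR-28a-5p first, were C9U, G13A, U18G, U19C, G20U and A21G, all outside the seed. Of 1679 mature miRNAs in the table, searched on the RNA strand alone, 9 held the letters AGGAGCU anywhere, a share of 0.536%, and 2 held them at bases 2 to 8. Those 2 were miR-28a-5p and miR-708-5p, so no other mature miRNA of the table had the seed of these arms. With no arm of Mir151 in the table, these counts leave it out, and whether it has this seed was not tested. In miR-28b the same letters start at base 1, which moves its seed by a single base to GGAGCUC. The 3p arms had no seed in common: the run ACUAGA spans bases 2 to 7 of miR-28a-3p and bases 3 to 8 of miR-708-3p. The counts are per gene, so the 5p and 3p arms of a hairpin were not told apart.

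All 3 members lie in introns of protein-coding genes on the strand of the host, on GRCm38. Mir28a lies on chromosome 16 from 24827855 to 24827940 on the plus strand, in Lpp, which encodes a LIM-domain protein of focal adhesions and smooth muscle. It stands in intron 8 of transcript Lpp-201, 434 kb from the transcript start and 17.2 kb before the next exon. Mir151 is found in the minus orientation at 73254815 to 73254882 of chromosome 15, in Ptk2, which encodes focal adhesion kinase. Its place is intron 22 of Ptk2-201, 2.15 kb after the preceding exon. The annotated antisense gene 1700085D07Rik spans the same position on the plus strand. Mir708 lies on chromosome 7 from 96249424 to 96249532 on the plus strand, in Tenm4, which encodes a teneurin, a transmembrane protein of cell adhesion. It stands in intron 1 of Tenm4-202, 37.8 kb from the transcript start, and so near the start of its host, whereas Mir28a and Mir151 lie 72.5% and 77.2% of the way along theirs. None of the annotated transcripts of the 3 hosts has an exon over its miRNA. The members are 3 of 111 genes in introns of protein-coding genes on their own strand among the 314 genes that reached 10 counts in both libraries, a share of 35.4%. Mir6394, the other counted miRNA gene of Tenm4, had 0 counts in both pups, which allows up to 3 counts, or 0.841 CPM in pup 1 and 0.640 CPM in pup 2. Host messenger RNA was not measured in this series.

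**Figure D1:**
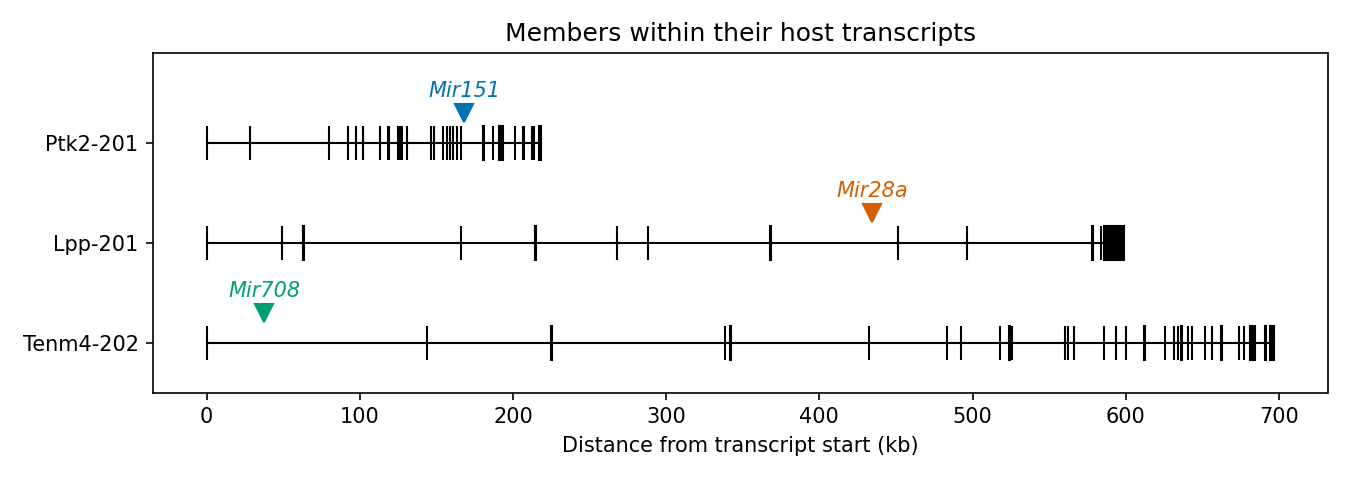
Position of each miRNA gene (triangle) in its host transcript, with exons as black boxes drawn to scale and distance from the transcript start in kb on the x axis. Mir708 lies in intron 1 of Tenm4-202, while Mir28a and Mir151 lie in intron 8 of Lpp-201 and intron 22 of Ptk2-201.

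Sequencing gave 6375694 reads for pup 1 and 8373497 for pup 2. Counts in miRNA genes on their own strand came to 3567658 in pup 1 and 4683939 in pup 2. Levels are given as CPM, counts per 1000000 of these, and every ± is the SD over 2 pups. Markers of intestinal tissue were abundant. The 8 epithelial markers summed to 282107 CPM in pup 1 and 327695 CPM in pup 2. The smooth muscle pair, Mir143 and Mir145a, summed to 181056 and 150129 CPM, and endothelial Mir126a stood at 54634 and 49791 CPM. Markers of striated muscle (347 and 355 CPM) and liver Mir122 (28.9 and 12.4 CPM) were far lower. The neuronal list summed to 1118 and 1084 CPM, with its 3 Mir124a genes at 0 counts in both pups. Multi-mapped reads were left out of all gene counts, and whether any came from the Mir124a genes was not tested. Their 0 counts therefore do not show that their miRNA was absent, and the neuronal sum may be a lower limit. Leukocyte Mir223 and Mir150 summed to 436 and 483 CPM, and erythroid Mir451a and Mir144 to 100.1 and 146 CPM. Mir142 of the leukocyte list was not analysed here.

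Together the 3 members took 0.556% ± 0.0519 of all miRNA counts, 5925 CPM in pup 1 and 5191 CPM in pup 2. All 3 passed the minimum of 10 counts in each library by a wide margin, and all lay above the median of the 314 genes that did so, 145 CPM. Mir151 held 51.7% ± 3.62 of the family's counts, Mir28a 30.6% ± 3.75 and Mir708 17.7% ± 0.130.

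Mir151 was the most abundant member, with 10380 counts in pup 1 and 13183 in pup 2. These were 2909 CPM (95% interval 2854 to 2966, exact Poisson) in pup 1 and 2815 CPM (2767 to 2863) in pup 2, a mean of 2862 ± 67.1 CPM. The intervals of the pups overlap. Such intervals cover counting error alone, as the reads carry no molecular identifiers and are not independent molecules.

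Mir28a followed with 7030 counts in pup 1 and 6798 in pup 2. Its level was 1970.5 CPM (1925 to 2017) in pup 1 and 1451 CPM (1417 to 1486) in pup 2, a mean of 1711 ± 367 CPM. The intervals of the pups do not overlap, and this was the member with the widest spread, a coefficient of variation of 21.5% against 2.35% for Mir151 and 8.61% for Mir708, and a median of 8.83% over the 314 genes.

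Mir708 was the lowest of the 3, with 3730 counts in pup 1 and 4335 in pup 2. It stood at 1046 CPM (1012 to 1080) in pup 1 and 926 CPM (898 to 953) in pup 2, a mean of 986 ± 84.9 CPM. Pup 1 was again the higher, by less than for Mir28a.

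**Figure D2:**
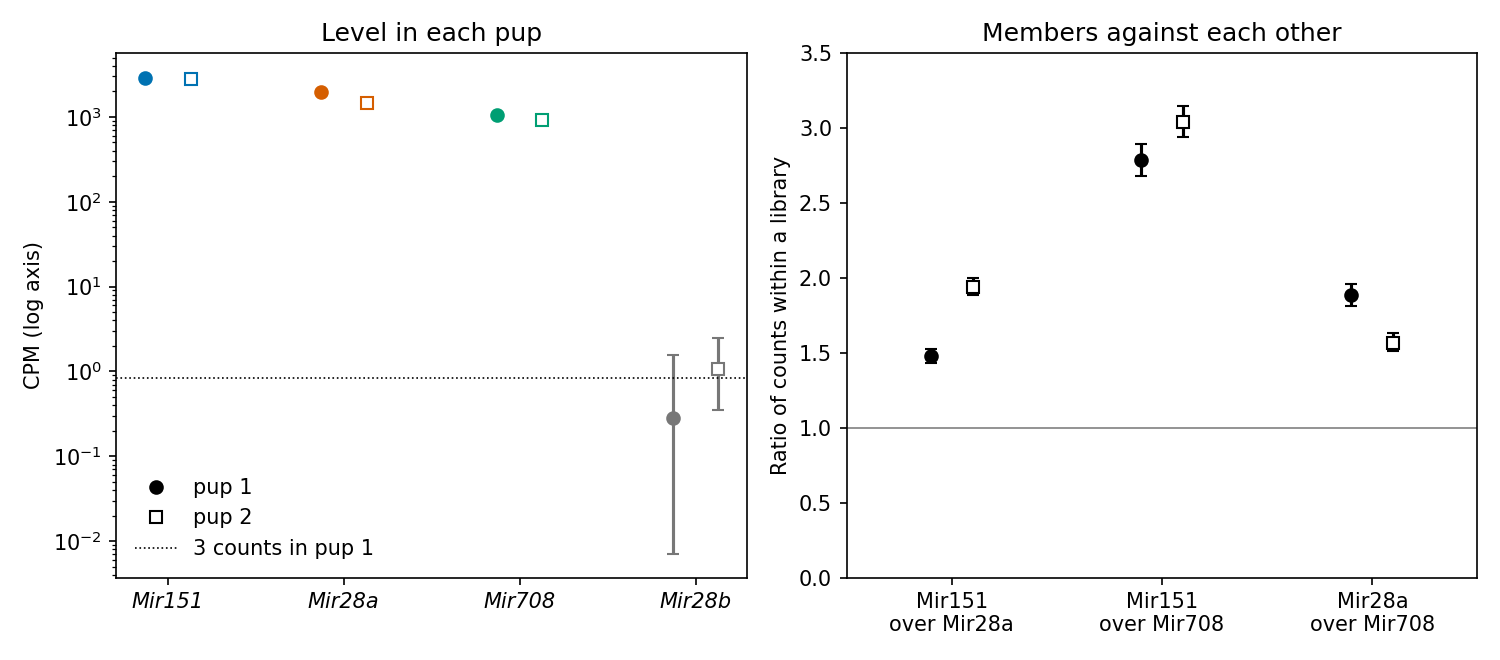
Left, CPM of each gene in pup 1 (filled circles) and pup 2 (open squares) on a log axis with exact Poisson 95% intervals, which are narrower than the symbols for the members; the dotted line is the level of 3 counts in pup 1. Right, ratios of counts between members within each library with exact binomial 95% intervals; all lie above 1, and Mir151 over Mir28a is 1.48 in pup 1 and 1.94 in pup 2.

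The order Mir151, Mir28a, Mir708 was the same in both pups, and no level of a member overlapped that of another. Within a library, counts of Mir151 over those of Mir28a gave a ratio of 1.48 in pup 1 (95% interval 1.43 to 1.52, exact binomial) and 1.94 in pup 2 (1.88 to 2.00). Mir151 over Mir708 gave 2.78 in pup 1 (2.68 to 2.89) and 3.04 in pup 2 (2.94 to 3.15), the steadiest of the 3 ratios, with a log2 mean of 1.54 ± 0.091. Mir28a over Mir708, the pair with the same 5p seed, gave 1.88 in pup 1 (1.81 to 1.96) and 1.57 in pup 2 (1.51 to 1.63), a log2 mean of 0.78 ± 0.19. Each pair differed by more than the spread between pups, in reads that mapped to a single place. Ratios between miRNAs also hold any difference in how well each is captured in a small RNA library, which both libraries share.

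Among the 314 genes ordered by mean CPM, Mir151 ranked 46, Mir28a 60 and Mir708 84. These means were 19.7, 11.8 and 6.80 times the median gene. In pup 1 and pup 2 the ranks were 45 and 46 for Mir151, 56 and 71 for Mir28a, and 81 and 84 for Mir708. The neighbours in that order were not separable from the members: Mir200a above and Mir106b below Mir151, Mir214 above and Mir181c below Mir28a, and Mir455 above and Mir107 below Mir708 each differed in mean by less than the larger SD of the pair. The gene most like each member was taken by the distance of log2 CPM over the 2 libraries. For Mir151 it was Mirlet7b (2925 CPM in pup 1 and 2854 CPM in pup 2, distance 0.021), then Mir130b (0.090) and Mir106b (0.094). For Mir28a it was Mir369 (1855 CPM in pup 1 and 1390.5 CPM in pup 2, distance 0.11), then Mir214 (0.19) and Mir181c (0.23). For Mir708 it was Mir298 (1044 CPM in pup 1 and 960 CPM in pup 2, distance 0.053), then Mir381 (0.10) and Mir455 (0.13). With 2 libraries such likeness covers level and the difference between littermates, and no more.

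**Figure D3:**
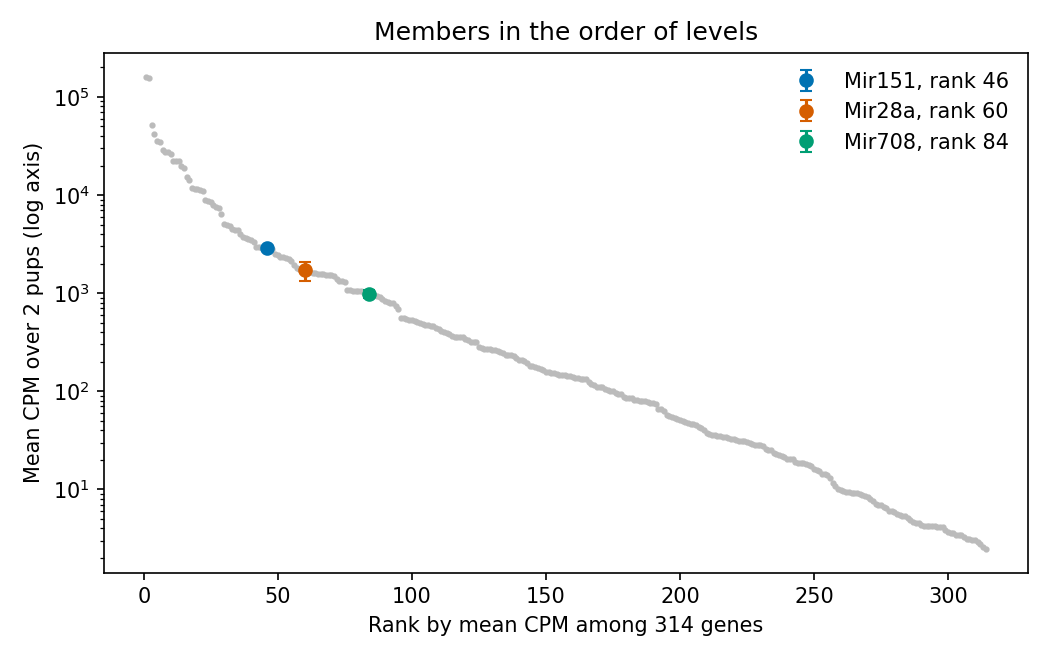
Mean CPM over 2 pups (y axis, log) of the 314 genes against their rank (x axis), with the members in colour and bars for the SD. The members sit at ranks 46, 60 and 84, between 986 and 2862 CPM.

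Between the littermates, Mir28a was higher in pup 1 while Mir151 was close to the same level in both. After TMM scaling, which sets the libraries to a common centre, Mir28a was 1.32-fold higher in pup 1 than in pup 2 (95% interval 1.27 to 1.36, exact binomial), a log2 ratio of 0.40. Mir708 was 1.10-fold higher in pup 1 (1.05 to 1.15), a log2 ratio of 0.13. Mir151 had a ratio of 1.00 (0.978 to 1.03), and its sign turned with scaling, with a log2 ratio of 0.048 by total counts (95% interval 0.011 to 0.085, exact binomial) and -0.037 by upper quartile. Mir28a was thus the 1 member of 3 whose log2 ratio exceeded 0.32 in size, and 11.5% of the 314 genes were that far higher in pup 1. Another 12.7% were that far lower, so 24.2% were past that fold in all. The split was 36 genes higher and 40 lower, against 24 and 47 with upper-quartile scaling and 42 and 33 with total counts. Counting Mir28a itself, 21 of 314 genes had a log2 ratio at least as high as that of Mir28a. Many of these had few counts: over the 227 genes with at least 100 counts in each library, 5 did (Mir196b, Mir410, Mir411, Mir10b and Mir28a, the other 4 named after their values were seen), and 5.29% were past the fold in that direction. The median absolute log2 ratio of all 314 genes was 0.18, so Mir708 and Mir151 each differed less between the pups than the median gene.

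**Figure D4:**
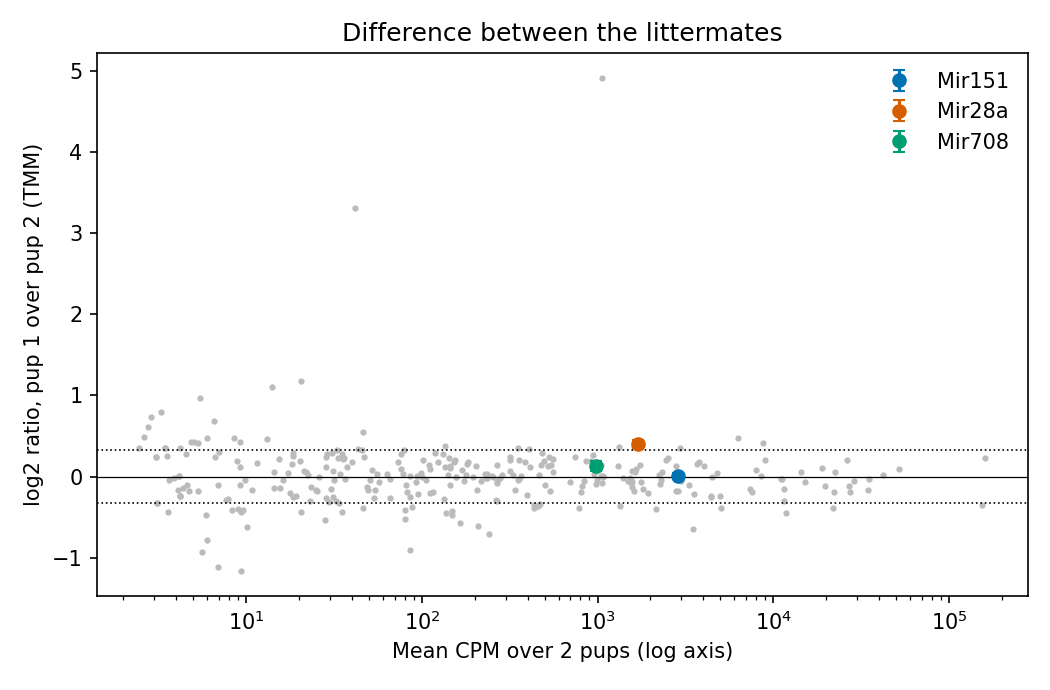
Log2 ratio of pup 1 over pup 2 after TMM scaling (y axis) against mean CPM (x axis, log) for 314 genes, with members in colour, exact binomial 95% intervals and dotted lines at a log2 ratio of 0.32 either way. Mir28a (0.40) lies past the upper line, Mir708 (0.13) and Mir151 near 0 within the lines.

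Markers of the tissue's cell types moved between the pups too. After TMM scaling all 8 epithelial markers had log2 ratios below 0, and their summed counts had -0.26. The 2 that were lower in pup 1 by more than 0.32 were Mir215 and Mir194-1. Over the 314 genes the median log2 ratio was -0.0022, and 12.7% were that far lower in pup 1. Whether the 8 markers vary separately was not tested. Their shared direction depends on scaling: Mir429 had a log2 ratio of -0.033, but 35423 CPM in pup 1 and 35179 CPM in pup 2. The smooth muscle sum had 0.23, with 1 gene above 0 and 1 below, and Mir126a had 0.091. The leukocyte sum had -0.19, the neuronal sum 0.0024 and the erythroid sum -0.58. Among their genes with at least 10 counts in each library, each list had 1 above 0 and 1 below. In the erythroid pair Mir451a had -0.91 and Mir144 0.12. The striated muscle sum had -0.076, with 3 genes below 0. Liver Mir122 had 1.18, on 103 counts in pup 1 and 58 in pup 2. The libraries stood furthest apart in Mir196b and Mir196a-2, miRNAs of the Hox clusters, named here after their values were seen. Mir196b had 2057 CPM in pup 1 and 66.2 CPM in pup 2, a log2 ratio of 4.91. Mir196a-2 had 76.2 and 7.47 CPM, a log2 ratio of 3.31. Other miRNAs of these clusters, also named after their values were seen, differed far less. Mir10b had 10142 and 7399.8 CPM, a log2 ratio of 0.41, while Mir10a had a log2 ratio of 0.11 and Mir615 of 0.035. The part of these markers and miRNAs in the difference of Mir28a was not tested. In whole tissue, fewer cells of a type and less of a miRNA in each cell cannot be told apart.

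Close relatives by sequence left few counts of their own. Mir28b had 1 count in pup 1 and 5 in pup 2, about the floor of 3 counts. It was named for its sequence, as were Gm23134 and Mir28c. Gm23134, an annotated miRNA gene on chromosome 2 from 157562361 to 157562447, contains bases 2 to 23 of miR-708-5p, a run of 22, and had 3 counts in pup 1 and 4 in pup 2. Base 1 alone of miR-708-5p lies outside this run, and the genome sequence at that base was not examined. The hairpin of Mir28c, which was not analysed here, contains bases 2 to 21 of miR-28a-5p, a run of 20. Against any further hairpin of the 2201 others the longest runs were 13 for miR-708-5p and 16 for miR-28a-5p. The 3p arms shared at most 15 for miR-708-3p, with Mir151, and 13 for miR-28a-3p, with Mir28b. Both 3p runs matched the reverse complement of the hairpin. Multi-mapped reads, which made up 30.3% of the library in pup 1 and 29.8% in pup 2, were assigned to no gene. The counts of Mir708 and Mir28a may therefore be lower limits, and how many of their reads were set aside was not tested. The arms of Mir151 had no sequence here, so the runs they share with other hairpins were not searched. The order of the members and the ratios between them thus hold for the reads counted.

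Few reads lay on the opposite strand of the members. Over all miRNA genes such reads came to 126262 in pup 1 and 161133 in pup 2, or 3.42% and 3.33% of the counts on either strand. The columns carry no header, and their strand was read from their sums. Mir28a and Mir151 had 0 such counts in both pups, Mir151 despite the antisense gene annotated there, and Mir708 had 2 in pup 1 and 8 in pup 2, or 0.0536% and 0.184% of its reads. Of the 314 genes, 290 had no opposite-strand count in either pup. The highest was Mir203, named after its values were seen, with 234 in pup 1 and 324 in pup 2. Most of the opposite-strand total thus lay in rows outside the 314 genes, so its share is no yardstick for Mir708.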

How the data were processed

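Small RNA (labelled size range below 30) of the intestine from 2 pups was analysed. For each miRNA gene the authors deposited unnormalized counts of reads, made on mm10 with GENCODE M4, per the text deposited with them; the aligner and counting program are not given in the sources used here. The 4 totals that name no gene (unmapped 9.35% and 10.1% of reads, multi-mapped 30.3% and 29.8%, outside genes 2.41% and 2.23%, ambiguous 0 in pup 1 and pup 2) stayed out of library sizes. Of 1973 identifiers 1894 matched GENCODE M21; the other 79 held 0 counts. The 3 count columns of each library have no header; either strand, annotated strand and opposite strand were inferred from their sums. Annotated-strand counts gave CPM, exact Poisson intervals and exact binomial ratios. TMM factors came from edgeR 4.0.16 (R 4.3.3) over genes with at least 10 counts in each library. They were also run on simulated counts with equal numbers of genes raised and lowered, which cannot show how they fare with unequal changes. DESeq2 1.42.0 size factors were an alternative. The named genes are the members, any gene sharing an arm's seed, the 3 nearest in log2 CPM, neighbours in rank, hosts and miRNA genes within them. Members and lists were chosen with earlier results of these data known. Sequences are from RefSeq (GRCm38.p6). Matches in the genome were planned but not run, since no genome sequence was used here; shared runs were searched among annotated hairpins instead.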

Additional observations from a re-analysis of the deposited data

Results flagged for a closer look

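Mir708 had 8 counts on the opposite strand in pup 2, above the 3 counts that a count of 0 allows, and 2 in pup 1. Of the 314 genes with at least 10 counts in each library, 8 exceeded 3 opposite-strand counts in either pup.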

How the results depend on the processing

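With all reads as the denominator, the levels were 957 for Mir28a, 1601 for Mir151, 551 for Mir708 and 3110 for the family, per 1000000 reads. Without Mir143 and Mir215 in the denominator they were 2499, 4182, 1440 and 8121 CPM. With strand ignored, Mir151 stood at 2765 CPM and ranked 48, and Mir708 ranked 90. With 1 pup left out, the rank ran from 45 to 46 for Mir151, 56 to 71 for Mir28a and 81 to 84 for Mir708. The log2 ratio of pup 1 over pup 2 for Mir151 was 0.048 with total counts and -0.037 with upper quartile. For Mir28a it ran from 0.36 to 0.44 over 6 alternatives, and for Mir708 from 0.091 to 0.18. Genes past the fold numbered 76, against 18 at 1.5-fold, 267 with a minimum of 1 count and 37 with a minimum of 100. Apart from the fold itself and the number of genes entering, the cause was not tested. In all, 19 alternative values moved and 44 did not, but this tally does not measure how firm the results are. With 2 pups, a level or within-library ratio from 1 pup always lies within the SD of the mean, so it could not move. A changed denominator rescaled the levels of the members alike within a library. No paired analysis was possible because the series has 1 group. Mir28b and Gm23134 had at most 5 counts, too few to describe their levels. The part of depth and of multi-mapped reads in these low counts was not tested.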
